A study of Mus musculus with 8 samples.

Results

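Transcripts of 10 genes of the p53 pathway, the GADD45 family and growth arrest were followed in Kupffer cells, which are macrophages that reside in the liver. They are Trp53 (ENSMUSG00000059552), Mdm2 (ENSMUSG00000020184), Cdkn1a (ENSMUSG00000023067), Ccng1 (ENSMUSG00000020326), Gadd45a (ENSMUSG00000036390), Gadd45b (ENSMUSG00000015312), Gadd45g (ENSMUSG00000021453), Btg1 (ENSMUSG00000036478), Btg2 (ENSMUSG00000020423) and Ier3 (ENSMUSG00000003541), taken by gene symbol from a deposited table of 55414 mouse genes, and all 10 were found there under a single Ensembl ID each. All 10 also passed the filter on low counts, which 14655 genes passed, and the smallest count of any of them in any library was 33. The cells, from wild-type C57BL/6J mice, were sorted from liver by flow cytometry 2 h after caecal ligation and puncture (CLP), a surgical model of abdominal sepsis, or 2 h after a sham operation (Sham), with 4 libraries in each group. Both groups had surgery, and Sham is the only control. The sources used here do not give ages, sexes or the antibodies of the sort. Nothing in the labels says that the libraries come from different mice, and p-values therefore measure only the spread between these libraries, which may be technical.

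The protein p53, encoded by Trp53, is a transcription factor that is held low by the ubiquitin ligase MDM2 and is stabilised by DNA damage and other stresses. It is controlled mainly at the level of the protein, so that the RNA of its target genes is the usual readout of its activity. Among these targets are Mdm2 itself, which closes a negative feedback loop, Cdkn1a, which encodes the cyclin-dependent kinase inhibitor p21, the cyclin gene Ccng1, and Gadd45a. The GADD45 proteins are small acidic stress sensors that bind the kinase MAP3K4 upstream of p38 and JNK. Gadd45b is also a target of NF-kB, the main transcription factor of the inflammatory response. BTG1 and BTG2 slow proliferation and recruit the CCR4-NOT deadenylase to messenger RNAs, and IER3 is an early-response regulator of cell survival. In macrophages several of these genes, Cdkn1a and Mdm2 included, are also induced by inflammatory signals without p53.

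The 250 bases before the RefSeq start site are shown for the 5 genes with a match to the p53 half-site, the ten-letter sequence bound by a p53 dimer, because these genes did not change together. The sequences are RefSeq's on GRCm38.p6, an earlier build than the mm39 assembly named for the counts, and are written 5′ to 3′ on the strand of the gene, with matches to the half-site in capitals. Mdm2 lies at chr10:117710759-117711008, minus strand, Cdkn1a at chr17:29090729-29090978, plus strand for the upstream one of its start sites, Ccng1 at chr11:40755287-40755536, minus strand, Gadd45a at chr6:67037408-67037657, minus strand and Trp53 at chr11:69580109-69580358, plus strand.
Mdm2: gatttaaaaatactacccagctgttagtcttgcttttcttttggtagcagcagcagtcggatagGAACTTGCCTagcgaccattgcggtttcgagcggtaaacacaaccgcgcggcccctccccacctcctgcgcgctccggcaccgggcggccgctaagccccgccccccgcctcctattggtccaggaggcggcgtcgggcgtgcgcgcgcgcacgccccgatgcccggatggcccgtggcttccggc
Cdkn1a: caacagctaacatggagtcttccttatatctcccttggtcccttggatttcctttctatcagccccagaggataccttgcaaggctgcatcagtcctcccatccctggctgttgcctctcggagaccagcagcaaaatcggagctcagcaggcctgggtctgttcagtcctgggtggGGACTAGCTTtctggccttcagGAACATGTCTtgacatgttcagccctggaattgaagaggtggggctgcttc
Ccng1: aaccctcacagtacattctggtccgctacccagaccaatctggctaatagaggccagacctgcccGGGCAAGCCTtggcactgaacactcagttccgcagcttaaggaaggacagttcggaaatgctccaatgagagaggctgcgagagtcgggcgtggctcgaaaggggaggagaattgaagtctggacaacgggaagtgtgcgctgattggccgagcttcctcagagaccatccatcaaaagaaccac
Gadd45a: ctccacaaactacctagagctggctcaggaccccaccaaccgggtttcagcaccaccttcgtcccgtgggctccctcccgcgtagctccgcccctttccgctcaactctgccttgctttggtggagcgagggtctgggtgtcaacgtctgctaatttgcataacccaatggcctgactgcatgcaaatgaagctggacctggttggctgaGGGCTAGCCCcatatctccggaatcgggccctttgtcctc
Trp53: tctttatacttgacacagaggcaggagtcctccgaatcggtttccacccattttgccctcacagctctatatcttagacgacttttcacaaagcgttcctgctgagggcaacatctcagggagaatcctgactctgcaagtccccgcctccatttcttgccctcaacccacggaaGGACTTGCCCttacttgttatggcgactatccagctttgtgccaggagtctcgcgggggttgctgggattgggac

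Motifs were searched on both strands of windows that run from 250 bases before to 50 bases after a start site, of which the 10 genes have 11. The p53 half-site was found in 5 of these 11 windows, against 8.36% of all 32851 windows in the table. The 10 genes were chosen in part as p53 genes, so these shares were not compared by a test and show no enrichment. Full p53 sites, and sequence outside the windows, were not searched. Of the genes that carry it, Mdm2, Cdkn1a and Gadd45a were higher after CLP, Ccng1 was lower and Trp53 did not pass the test. The upstream Cdkn1a window held 2 matches, GGACTAGCTT and GAACATGTCT, and its second window held none. A match to the NF-kB consensus was found in 2 windows, those of Trp53 and Ier3, against 8.46% of all windows. The match in Trp53 spans the start site. The stretch before the start site of Ier3, at chr17:35821463-35821712, plus strand, is shown because it holds the other NF-kB match, here in capitals.
Ier3: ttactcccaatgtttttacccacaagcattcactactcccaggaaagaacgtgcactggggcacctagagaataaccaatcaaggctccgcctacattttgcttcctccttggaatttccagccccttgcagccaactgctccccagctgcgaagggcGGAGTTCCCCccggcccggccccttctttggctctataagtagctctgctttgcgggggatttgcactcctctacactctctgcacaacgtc

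The window of Gadd45b, the gene of the set with the largest change, held no match to either consensus. It held the E-box CACGTG, found in 7.15% of all windows, and the TATA box TATAAA, found in 13.6%. Gadd45g also held both. The E-box was in 3 of the 11 windows and the TATA box in 4, counting Trp53, where both were present, and Btg1, with the TATA box alone. The cAMP response element TGACGTCA was found only in the Btg2 window among the 11, against 1.79% of all windows. Neither the AP-1 site TGANTCA (7.81% of all windows) nor the CArG box of serum response factor (1.63%) was found in any of the 11. No 2 of the matches overlapped. A match is a description of the letters and was not tested for binding. The lack of a match holds only for the window, because sequence further away was not searched.

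At 2 h after CLP, 6 of the 10 genes were higher, 1 was lower and 3 did not pass the test. Those that rose were Gadd45b, Gadd45a, Cdkn1a, Mdm2, Ier3 and Btg1, by 3.00-fold to 14.7-fold, and the 4 CLP libraries lay above the 4 Sham libraries for each of them. Ccng1 fell, while Trp53, Gadd45g and Btg2 did not pass. Of all 14655 genes tested with edgeR, 24.9% were higher and 29.5% were lower, or 54.3% in either direction. The libraries of the groups did not overlap for 49.5% of these genes, with CLP above Sham for 22.1%. Levels are given in CPM, counts set relative to the library total after scaling by the trimmed mean of M-values (TMM), and a gene passed at an adjusted p under 0.05.

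**Figure D1:**
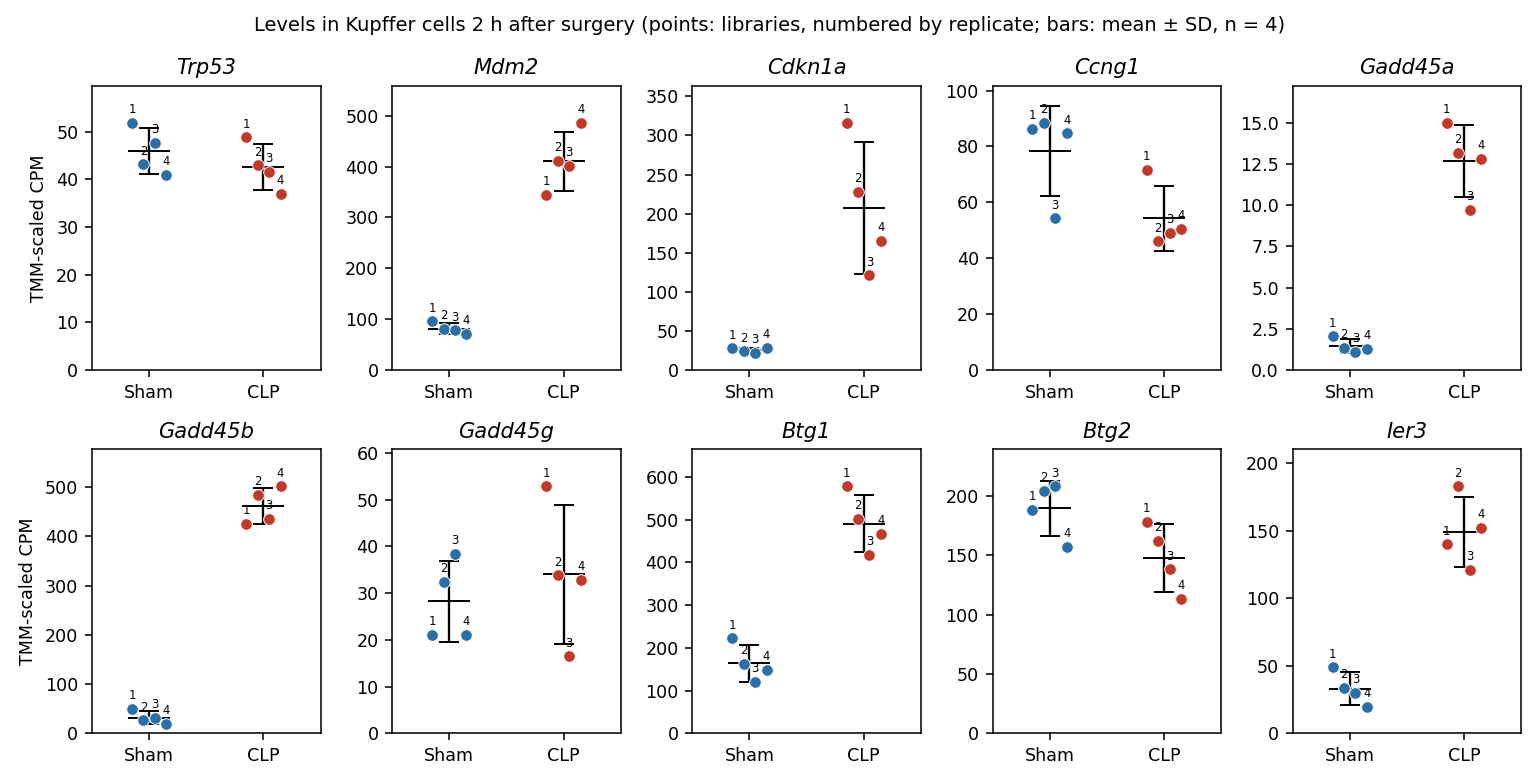
Level of each of the 10 genes in TMM-scaled CPM (vertical axes, each from 0) in the 4 Sham and 4 CLP libraries, with the mean and SD. For Mdm2, Cdkn1a, Gadd45a, Gadd45b, Btg1 and Ier3 every CLP point lies above every Sham point, and for Trp53, Ccng1, Gadd45g and Btg2 the groups overlap.

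Each library held 23311900 to 28724900 counts (rounded), with no difference found between the groups (two-sided exact permutation test, p = 0.743, n = 4). CLP replicate 1 stood away from the other CLP libraries on both leading principal components, at -45.17 against -82.26 to -78.15 on the first (76.7% of the variance) and at 58.6 against -21.57 to -7.827 on the second (9.99%), and 9232 genes passed without it in place of 7963. Clec4f, a lectin that defines Kupffer cells, stood at 7374 ± 740 CPM in Sham and 8920 ± 900 CPM in CLP (SD, n = 4). Of 13 Kupffer cell markers 4 were higher and 1 was lower, against 24.9% and 29.5% of all genes. Their summed level was 23728 to 30792 CPM in Sham and 31065 to 40285 CPM in CLP, a ratio of 1.23 that was 0.841 with total-count scaling. Nr1h3, a nuclear receptor gene among them named after its values were seen, went from 305 ± 27.9 to 132 ± 33.9 CPM. The summed markers of neutrophils were 101 to 139 CPM in Sham and 239 to 581 CPM after CLP, those of platelets 18.8 to 31.6 and 137 to 214 CPM, and those of B cells 9.96 to 15.1 and 24.5 to 39.8 CPM. Of the 13, 10 and 9 markers listed in that order, 9, 8 and 8 were tested. Of those tested, 9, 8 and 7 were higher, against 24.9% of all genes. Several lay below 1 CPM in Sham, where a gene passes the filter more easily when it is high in CLP, so the filter favoured these calls. The 1 lower B cell marker was Cd79b, the most abundant of its list in Sham, which went from 8.57 ± 2.26 to 4.56 ± 1.76 CPM. Most of the neutrophil sum in Sham was Csf3r, at 99.1 ± 14.9 CPM, which reached 246 ± 73.6 CPM after CLP. The defining neutrophil genes S100a8 and Ly6g were at 1.23 ± 0.473 and 0 CPM in Sham and reached 51.9 ± 31.3 and 0.364 ± 0.271 CPM after CLP. Hepatocytes and sinusoidal endothelial cells had larger marker sums than neutrophils, platelets and B cells. Those of hepatocytes were 2281 to 3147 CPM in Sham and 2950 to 3916 CPM after CLP. Those of endothelial cells were 545 to 658 and 623 to 654 CPM. Of 10 tested markers of each, 1 and 5 were higher and 0 lower, against 24.9% and 29.5% of all genes. The part of all these cells in the levels below was not tested. In sorted bulk cells, a change in the share of a cell type and a change in RNA per cell cannot be told apart. TMM factors were 0.801 to 0.837 in CLP and 1.16 to 1.28 in Sham. Scaling by total counts alone moved the median log2 fold change by -0.55 and left 17.1% of calls upward in place of 45.8%, with 1715 genes higher and 8292 lower, so directions of small changes depend on it.

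Trp53 RNA did not differ beyond the spread of the libraries. Its level was 48.8, 42.9, 41.6 and 37.0 CPM in CLP replicates 1 to 4 and 51.8, 43.1, 47.6 and 40.9 CPM in Sham replicates 1 to 4. The groups overlapped over most of their range. The log2 fold change came to -0.11 ± 0.12 (SE; edgeR adjusted p = 0.462). With total-count scaling Trp53 was lower, at -0.66 (edgeR adjusted p = 0.00065).

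Mdm2, the ubiquitin ligase that targets p53 for degradation, rose in every CLP library. It stood at 344, 411, 402 and 486 CPM in CLP replicates 1 to 4 and at 95.6, 80.6, 78.0 and 71.2 CPM in Sham replicates 1 to 4. The lowest CLP library was far above the highest Sham library. The rise was 5.04-fold (log2 fold change 2.33 ± 0.14, SE; edgeR adjusted p = 2e-06). Within each library the log2 ratio of Mdm2 to Trp53 counts, which does not depend on the scaling of libraries, was 3.27 ± 0.37 in CLP and 0.82 ± 0.09 in Sham (SD, n = 4). The libraries did not overlap in this ratio (two-sided exact permutation test, p = 0.0286, with 0.0333 after adjustment over 7 ratios), and 0.0286 is the smallest p that 4 against 4 libraries can give.

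Cdkn1a, which encodes the inhibitor p21 that arrests the cell cycle, rose with a wide spread among the CLP libraries. It was at 316, 228, 121 and 165 CPM in CLP replicates 1 to 4 and at 27.7, 23.8, 21.7 and 28.1 CPM in Sham replicates 1 to 4. CLP replicate 1 was the highest and CLP replicate 3 the lowest of the CLP libraries, and no CLP library came near the Sham range. The rise was 8.20-fold (log2 fold change 3.04 ± 0.27, SE; edgeR adjusted p = 1.2e-05), with a log2 fold change of 2.76 without CLP replicate 1. An uncharacterised gene on the opposite strand shares 7.68% of the exon bases of Cdkn1a and had 22 counts over all libraries, against 21227 for Cdkn1a.

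Ccng1, a cyclin G gene and standard p53 target, moved the other way. Its level was 71.6, 46.0, 49.0 and 50.6 CPM in CLP replicates 1 to 4 and 86.2, 88.4, 54.3 and 84.7 CPM in Sham replicates 1 to 4. CLP replicate 1 was high and Sham replicate 3 low within their groups, and these libraries made the groups overlap. The log2 fold change came to -0.53 ± 0.18 (SE; edgeR adjusted p = 0.032). This call was lost when CLP replicate 2, 3 or 4 or Sham replicate 1, 2 or 4 was left out (log2 fold changes -0.49 to -0.45, edgeR adjusted p = 0.0788 to 0.097) and with a correction for GC content (-0.49, edgeR adjusted p = 0.0789). Without Sham replicate 3 the log2 fold change was -0.67.

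Cdkn1a and Ccng1, both p53 targets, moved by different factors in the same libraries. A ratio does not show by itself that Ccng1 fell, and that call was lost in 7 of 14 alternatives. The log2 ratio of Cdkn1a to Ccng1 counts was 1.87 ± 0.45 in CLP and -1.61 ± 0.23 in Sham (SD, n = 4), a difference of 11.1-fold, and the libraries did not overlap (two-sided exact permutation test, p = 0.0286, with 0.0333 after adjustment over 7 ratios). Cdkn1b, which encodes the related inhibitor p27, went from 89.0 ± 17.5 to 102 ± 17.8 CPM, a change that missed the threshold (log2 fold change 0.20 ± 0.17, SE; edgeR adjusted p = 0.33). The ratio of Cdkn1a to Cdkn1b rose 6.71-fold (two-sided exact permutation test, p = 0.0286, with 0.0333 after adjustment).

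Within the GADD45 family, Gadd45b and Gadd45a rose and Gadd45g did not pass. Gadd45b, the member induced by NF-kB, stood at 426, 484, 435 and 502 CPM in CLP replicates 1 to 4 and at 49.2, 26.3, 32.0 and 18.5 CPM in Sham replicates 1 to 4. The CLP libraries were close to each other, while Sham replicate 1 was the highest Sham library. The change was 14.7-fold (log2 fold change 3.87 ± 0.27, SE; edgeR adjusted p = 3.9e-06), or 4.19 on the log2 scale without Sham replicate 1. Only 1.09% of the genes tested had a larger log2 fold change.

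Gadd45a, the member most often described as a p53 target, was far less abundant. Its level was 15.0, 13.2, 9.71 and 12.8 CPM in CLP replicates 1 to 4 and 2.05, 1.34, 1.11 and 1.28 CPM in Sham replicates 1 to 4. The groups were well apart, and Sham replicate 1 was again the highest Sham library. The change was 8.76-fold (log2 fold change 3.13 ± 0.23, SE; edgeR adjusted p = 4.4e-06). The noncoding gene E230016M11Rik on the opposite strand shares 19.1% of the exon bases of Gadd45a and had 102 counts over all libraries, against 1275 for Gadd45a, and the sources used here do not give the strand setting of the counting.

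Gadd45g, the third member, varied more within the groups than between them. It was at 52.9, 33.8, 16.5 and 32.9 CPM in CLP replicates 1 to 4 and at 21.1, 32.5, 38.4 and 21.1 CPM in Sham replicates 1 to 4. Both the highest and the lowest library were CLP libraries. The log2 fold change came to 0.27 ± 0.32 (SE; edgeR adjusted p = 0.493). It turned to -0.03 without CLP replicate 1, the highest library, and to -0.29 with total-count scaling.

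The family members differed in their response within libraries. The log2 ratio of Gadd45b to Gadd45g counts was 3.87 ± 0.70 in CLP and 0.12 ± 0.74 in Sham, and that of Gadd45g to Gadd45a was 1.32 ± 0.43 in CLP and 4.26 ± 0.75 in Sham (SD, n = 4). In both ratios the libraries of the groups did not overlap (two-sided exact permutation tests, p = 0.0286 each, with 0.0333 after adjustment over 7 ratios). The ratio of Gadd45b to Gadd45a was 5.19 ± 0.28 in CLP and 4.38 ± 0.43 in Sham, and its difference of 0.81 did not pass (two-sided exact permutation test, p = 0.0571, unchanged by the adjustment). That ratio overlapped between CLP replicate 1 (4.82) and Sham replicate 3 (4.83), and it passed with a pseudocount of 1 (difference 0.83, exact p = 0.0286) or without Sham replicate 3 (0.97, exact p = 0.0286).

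**Figure D2:**
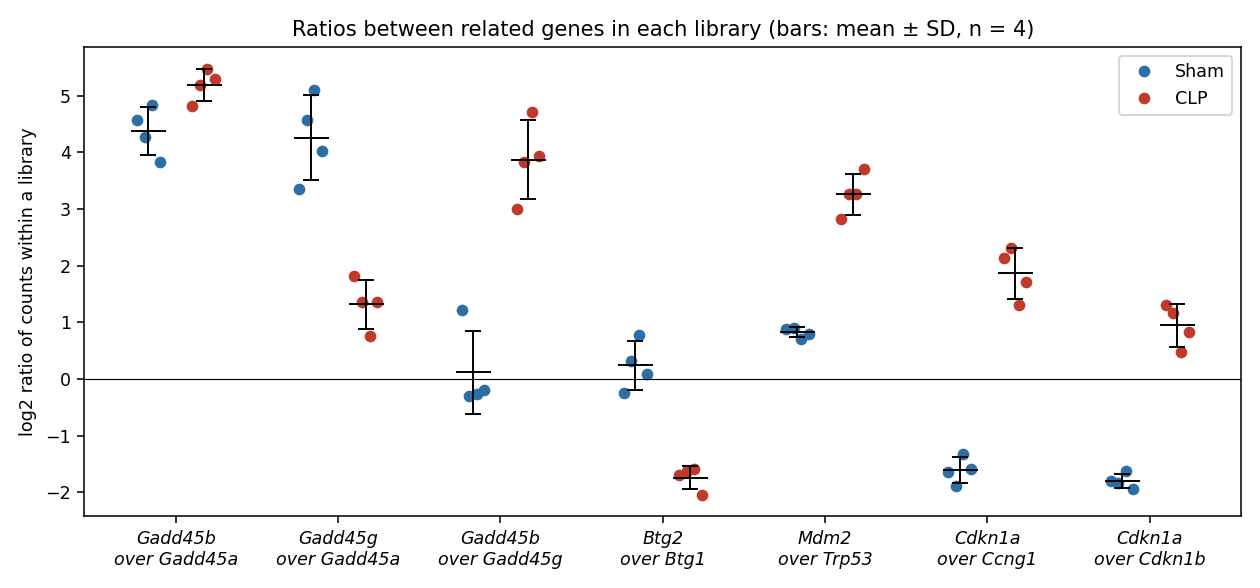
Log2 ratio of the counts of 2 related genes within each library (vertical axis), for 7 pairs of genes in Sham and CLP, with the mean and SD. The groups are apart for 6 pairs, among them Mdm2 over Trp53 (3.27 in CLP and 0.82 in Sham on average), and overlap for Gadd45b over Gadd45a.

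The BTG pair also diverged. Btg1, an antiproliferative gene that is high in resting cells, was at 578, 501, 417 and 467 CPM in CLP replicates 1 to 4 and at 222, 163, 121 and 148 CPM in Sham replicates 1 to 4. Replicate 1 was the highest library in each group, and the groups did not overlap. Btg1 rose 3.00-fold (log2 fold change 1.59 ± 0.19, SE; edgeR adjusted p = 5.7e-05). Its annotated copies Btg1-ps1 and Btg1-ps2 had 0 counts.

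Btg2, a p53 target and immediate early gene, was the most abundant of the 10 in Sham per kilobase of annotated exon. Its level was 178, 162, 138 and 113 CPM in CLP replicates 1 to 4 and 188, 204, 208 and 157 CPM in Sham replicates 1 to 4. Only CLP replicates 1 and 2 reached into the Sham range. The log2 fold change of -0.36 ± 0.16 did not pass (SE; edgeR adjusted p = 0.0728). It passed as lower without CLP replicate 1 (-0.46, edgeR adjusted p = 0.0191), with total-count scaling (-0.91, edgeR adjusted p = 0.00042) and without the filter on low counts (-0.41, edgeR adjusted p = 0.0369). The log2 ratio of Btg2 to Btg1 counts was -1.74 ± 0.21 in CLP and 0.24 ± 0.43 in Sham (SD, n = 4), with no overlap (two-sided exact permutation test, p = 0.0286, with 0.0333 after adjustment over 7 ratios).

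Ier3 was at 140, 183, 121 and 152 CPM in CLP replicates 1 to 4 and at 48.8, 33.4, 29.9 and 19.4 CPM in Sham replicates 1 to 4. The groups were apart, and Sham replicate 1 was the highest Sham library here as well. Ier3 rose 4.54-fold (log2 fold change 2.18 ± 0.25, SE; edgeR adjusted p = 4.9e-05). The NF-kB match of its promoter is shown above.

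Leaving out any 1 library kept the 6 rises past the threshold, as did every other setting tried, with log2 fold changes of 3.33 to 4.19 for Gadd45b, 2.59 to 3.37 for Gadd45a, 2.48 to 3.23 for Cdkn1a, 1.78 to 2.44 for Mdm2, 1.63 to 2.46 for Ier3 and 1.04 to 1.79 for Btg1. Without CLP replicate 1 the log2 fold changes were 3.91 for Gadd45b, 3.04 for Gadd45a, 2.41 for Mdm2, 2.21 for Ier3 and 1.5 for Btg1, with -0.69 for Ccng1 and -0.18 for Trp53.

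**Figure D3:**
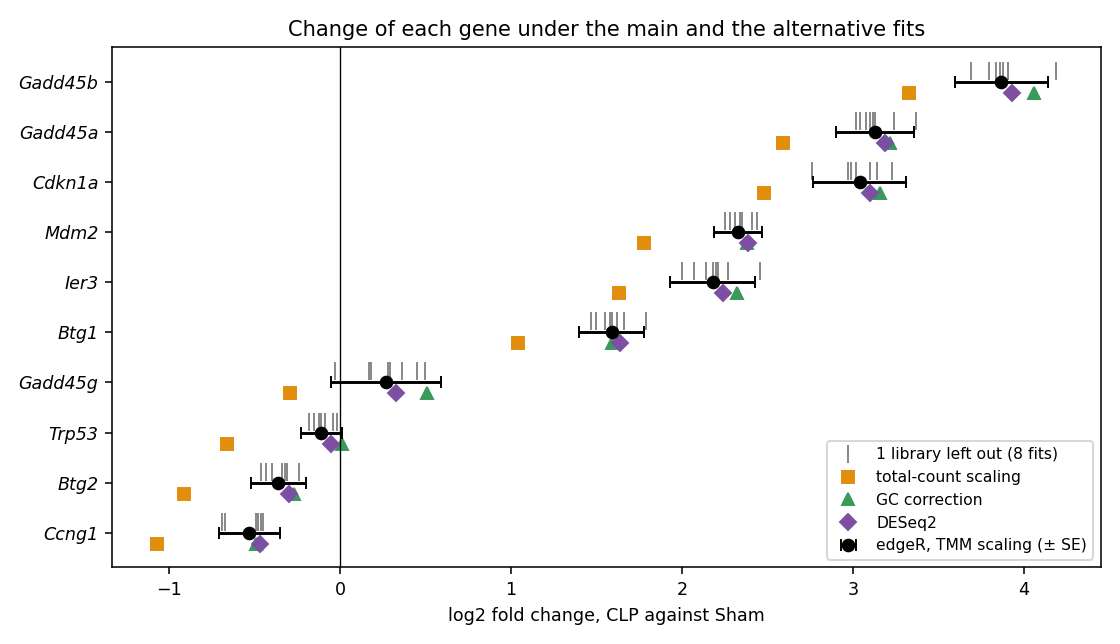
Log2 fold change of each gene, CLP against Sham (horizontal axis), with its SE from edgeR with TMM scaling, and the values when 1 library is left out, with total-count scaling, with a GC correction and with DESeq2. The 6 genes from Btg1 (1.59) to Gadd45b (3.87) lie above 0 in every fit, while Gadd45g and Trp53 have fits on both sides of 0.

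Per kilobase of annotated exon, which puts the genes on a common scale, the order of levels differed between the groups. The length counts every annotated exon of a gene and can exceed that of a single transcript, so ranks between genes are approximate. In Sham, Btg2 led with 69.0 ± 8.55 CPM per kb and lay above the next gene in every library. Btg1, Ier3, Gadd45g, Ccng1, Gadd45b and Mdm2 followed between 31.0 and 16.0 CPM per kb, each overlapping the next as far as Mdm2. Trp53 (11.3, libraries 10.1 to 12.8), Cdkn1a (7.12 ± 0.875) and Gadd45a (0.819 ± 0.235 CPM per kb) came last, each below the one before without overlap. In CLP, Gadd45b led with 291 ± 23.3 CPM per kb, above Ier3 at 132 ± 23.1 in every library. Btg1, Mdm2, Cdkn1a, Btg2, Gadd45g and Ccng1 followed between 93.0 and 15.5 CPM per kb with overlap between neighbours. Trp53 (10.5 ± 1.21) and Gadd45a (7.20 ± 1.25 CPM per kb) were again last and did not overlap. Gadd45b thus went from sixth to first, and Gadd45a stayed the least abundant.

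Among 16 tested regulators of p53, 1 was higher and 7 were lower, against 24.9% and 29.5% of all genes. The median log2 fold change was -0.36, against -0.04 over all genes. The gene that rose was Usp7, a deubiquitinase of MDM2 and p53, from 143 ± 11.1 CPM after Sham to 203 ± 8.12 CPM after CLP (SD, n = 4, and in this order from here on), and it did not pass with total-count scaling (log2 fold change -0.05). With that scaling 0 regulators were higher and 13 lower. Without CLP replicate 1, 4 regulators passed as higher, and without Sham replicate 3, 2 did. Wrap53, which lies head to head with Trp53, fell by 2.08 on the log2 scale, and Ppm1d, a phosphatase that turns off p53 signalling and is itself a p53 target, fell by 1.26. Ep300, an acetyltransferase that p53 uses as a coactivator, went from 277 ± 26.2 to 130 ± 19.2 CPM. The DNA damage kinases Atm, Atr and Chek2 and the damage adaptor Trp53bp1 were also lower, with log2 fold changes of -0.85, -0.43, -1.49 and -1.13, which were named after their values were seen. Chek1, another damage kinase of the list named afterwards, missed the threshold at -0.58 (edgeR adjusted p = 0.222). It passed as lower only with total-count scaling. Mdm4, the partner of MDM2 and also named afterwards, had a log2 fold change of 0.23 ± 0.19 that missed the threshold (edgeR adjusted p = 0.33) and passed without CLP replicate 1. The relatives Trp63 and Trp73 did not pass the filter on low counts.

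Of 27 other p53 target genes tested, 6 were higher and 10 lower, shares near the 24.9% and 29.5% over all genes, and the median was -0.18 on the log2 scale. Plk2, a kinase of the stress response, rose most clearly, from 15.8 ± 6.30 to 457 ± 166 CPM (log2 fold change 4.85 ± 0.35, SE; edgeR adjusted p = 4e-06). Sesn1, an antioxidant brake on mTORC1, fell from 48.8 ± 8.87 to 4.87 ± 0.940 CPM, and Xpc, which recognises damaged bases for excision repair, from 18.3 to 20.8 CPM in the Sham libraries to 3.71 to 4.87 CPM in the CLP libraries. The other 5 that rose were named after their values were seen. They were the death receptor Fas, the stress cytokine Gdf15, the apoptosome scaffold Apaf1, the tetraspanin Cd82 and the death effector Bax, with log2 fold changes of 4.19, 3.80, 2.57, 1.00 and 0.70, and Cd82 and Bax did not pass with total-count scaling. Bbc3, which encodes the p53-dependent death effector PUMA, was lower, going from 6.39 ± 0.926 to 3.26 ± 0.591 CPM, and was also named after its values were seen.

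Of 11 other inhibitors of the cell cycle and relatives of the BTG genes, 3 were higher and 3 lower, also near the shares over all genes, and the median was 0.20 on the log2 scale. In Sham, 3 of the 11 lay below 1 CPM, where a gene passes the filter more easily when it is high in CLP. Cdkn2b, an inhibitor of CDK4 and CDK6, went from 0.628 ± 0.299 to 8.68 ± 2.97 CPM, and its relative Cdkn2d from 4.11 ± 1.17 to 11.5 ± 2.26 CPM. Btg3 had a log2 fold change of 0.79 that passed (edgeR adjusted p = 0.039), but the call was lost in 9 of 14 alternatives, among them total-count scaling (0.23), no filter on low counts, and leaving out CLP replicate 2, 3 or 4 or Sham replicate 1, 2 or 4. Cdkn2c fell by 1.77 and the pocket protein genes Rbl1 and Rbl2 by 1.42 and 0.54 on the log2 scale. Rbl2 missed the threshold without CLP replicate 2, 3 or 4 or Sham replicate 1, 2 or 4.

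Kinases of the p38 and JNK pathway, on which GADD45 proteins act, were higher in 8 of 13 cases and lower in 4. The shares over all genes were 24.9% and 29.5%. The median log2 fold change of the list was 0.89. In Sham, 1 of the 13 lay below 1 CPM, namely Mapk12 (0.621 CPM), which was among those higher. Map2k3, which activates p38, rose from 54.7 ± 14.0 to 468 ± 33.4 CPM (log2 fold change 3.10 ± 0.18, SE; edgeR adjusted p = 1.5e-06). Mapkapk3, a kinase downstream of p38, rose from 19.3 to 20.8 CPM in the Sham libraries to 46.1 to 63.7 CPM in the CLP libraries. Map3k4, the direct partner of the GADD45 proteins, moved the other way, from 47.4 ± 5.27 to 19.2 ± 5.81 CPM (log2 fold change -1.30 ± 0.19, SE; edgeR adjusted p = 0.00022). Mapk14, which encodes p38 alpha, fell by 1.41 and Map2k6, the other activator of p38, by 2.09 on the log2 scale. Map2k7, an activator of JNK, had a log2 fold change of only -0.26 and its call was lost in 10 of 14 alternatives, among them the GC correction, DESeq2, no filter on low counts, and leaving out CLP replicate 2 or 3 or any 1 Sham library. With total-count scaling 4 genes of the list were higher.

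The genes tested of the deadenylation machinery with which BTG proteins act were CCR4-NOT subunit genes (Cnot), Pabpc1 and Prmt1. Of these 13, 2 were higher and 5 lower, against 24.9% and 29.5% of all genes, with a median of 0.09 on the log2 scale. The 5 lower genes are all Cnot genes, as is every gene of the list except Pabpc1 and Prmt1. With total-count scaling 0 genes of the list were higher and 10 lower. Cnot8, a catalytic subunit that binds the BTG proteins, fell from 45.2 ± 4.61 to 14.5 ± 2.90 CPM. Its near relative Cnot7, named after its values were seen, was at 36.6 CPM in Sham and 39.7 CPM in CLP and missed the threshold (edgeR adjusted p = 0.296), which it passed as lower with total-count scaling. The subunit genes Cnot3, Cnot6l, Cnot10 and Cnot11 fell by 0.89, 0.78, 0.48 and 0.97 on the log2 scale. Cnot4, a ubiquitin ligase, and Pabpc1, the poly(A) binding protein, had log2 fold changes of 0.67 and 0.72, and neither passed with total-count scaling.

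The genes named like Ier3 as immediate early response genes, which are not its sequence relatives, were Ier2, Ier5 and Ier5l, with a median log2 fold change of 1.09. Ier2 went from 55.4 ± 8.48 to 118 ± 22.5 CPM and Ier5 from 59.6 ± 21.4 to 134 ± 18.1 CPM, and both passed. Ier5l was lower, going from 1.27 ± 0.636 to 0.454 ± 0.0765 CPM.

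Cyclins, cyclin-dependent kinases and proliferation markers were lower in 9 of 20 cases and higher in 3, against 29.5% and 24.9% of all genes. The median log2 fold change was -0.79. Without CLP replicate 1, 14 were lower, with total-count scaling 15, and without CLP replicate 2, 3 or 4 or Sham replicate 1 or 4, 6. Ccnd3, a cyclin of the early cycle, fell from 45.6 ± 8.95 to 18.3 ± 2.77 CPM. The 3 that rose were Mki67, Ccnd2 and Cdk6. Mki67, a marker of cycling cells, lay between 75.7 and 170 CPM in Sham and between 414 and 546 CPM after CLP (log2 fold change 1.95 ± 0.27, SE; edgeR adjusted p = 0.00017). Top2a, which usually accompanies it in cycling cells, went from 63.0 ± 35.6 to 45.5 ± 20.5 CPM and missed the threshold (edgeR adjusted p = 0.396). The mitotic genes Ccnb1 and Plk1 were lower, with log2 fold changes of -1.52 and -2.77, and the call of Ccnb1 was lost without any 1 of the same 5 libraries. Top2a, Ccnb1 and Plk1 were named after their values were seen. Ccnd2 went from 17.2 ± 3.97 to 51.9 ± 9.93 CPM, and Cdk6 from 76.8 ± 4.21 to 186 ± 67.1 CPM.

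**Figure D4:**
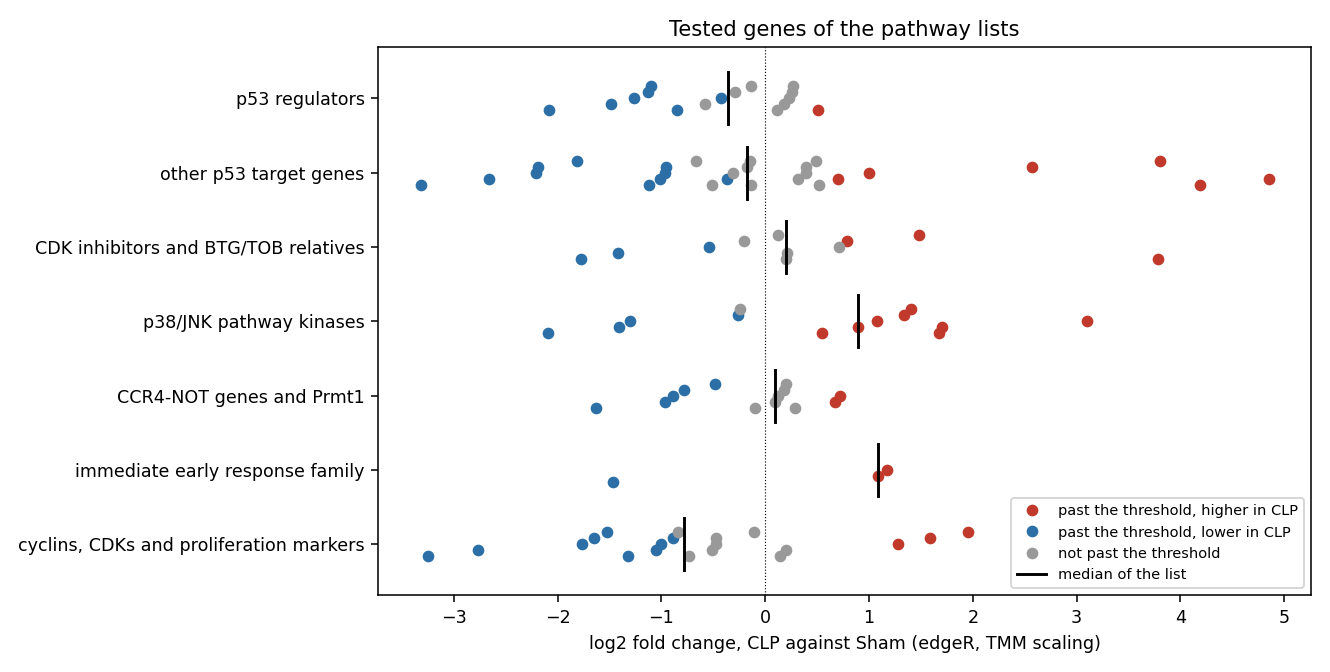
Log2 fold change of every tested gene in 7 lists of related genes (horizontal axis, CLP against Sham), coloured by whether the gene passed an adjusted p of 0.05, with a bar at the median of each list. Of the p38 and JNK kinases 8 of 13 are coloured as higher, against 24.9% of all genes. The cyclins and proliferation markers have the lowest median (-0.79).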

How the data were processed

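RNA was sequenced from sorted Kupffer cells with the Illumina TruSeq stranded kit on an Element AVITI, per the labels' protocols, in 4 CLP and 4 Sham libraries. The deposited values are raw whole-number counts per Ensembl gene, 1 column per library. FastQC, STAR 2.7.10b, featureCounts, DESeq2 and mm39 are named in the submitters' processing notes. The sources used here do not give their settings, annotation or strand mode.

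Symbols, exon lengths and GC content came from GENCODE M21 on GRCm38 (52081 IDs matched, with 99.8% of counts, and 208 of 210 list entries). Promoters came from RefSeq on GRCm38.p6. After filterByExpr and TMM scaling, genes were tested by surgery with the robust quasi-likelihood F-test of edgeR 4.0.16 and adjusted by Benjamini-Hochberg over 14655 genes, in R 4.3.3. The SE is the absolute log2 fold change over the square root of F. Ratios within libraries used a pseudocount of 0.5. The fits were also run on simulated counts with changes planted in a small part of the genes. That setting does not check the scaling of these data, where far more genes changed. Alternatives were DESeq2 1.42.0, limma voom 3.58.1, total-count scaling, no filter, a replicate block, a GC correction (lowess span 0.3; 99.57% of genes had a value) and leaving out each library. All libraries of a group differed beyond sampling noise. All 10 genes were described. From each list the 3 genes with the smallest p, those in a direction with 5 or fewer calls and others marked in the text were named. The members, lists and motifs were chosen with earlier results of these data known.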

Additional observations from a re-analysis of the deposited data

Results flagged for a closer look

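Values of 4 libraries were examined in 54 groups for a library far from the other 3, and chance alone flags about 1 group in 20. Ccng1 stood at 54.3 CPM in Sham replicate 3, against 84.7 to 88.4 CPM in the other Sham libraries. The log2 ratio of Gadd45b to Gadd45g counts was 1.22 in Sham replicate 1, against -0.31 to -0.19 in the others, and that library held the most Gadd45b of the Sham libraries (49.2 CPM).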

How the results depend on the processing

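The number of the 10 genes called higher was 6 in every setting tried, with Mdm2, Cdkn1a, Gadd45a, Gadd45b, Btg1 and Ier3 past the threshold in each. The number called lower was 1, with 3 under total-count scaling, 2 without the filter on low counts, 2 with the replicate block, 0 with the GC correction and 0 to 2 when 1 library was left out. Total-count scaling gave 1715 genes higher and 8292 lower over all genes. Under it Trp53 was at -0.66, Gadd45g at -0.29 and Btg2 at -0.91 on the log2 scale. It also gave 0 p53 regulators higher and 13 lower, 5 cell cycle inhibitors and BTG relatives lower, 4 p38 and JNK kinases higher, 0 genes of the deadenylase list (CCR4-NOT, Pabpc1 and Prmt1) higher and 10 lower, and 15 cyclins and proliferation markers lower. The GC correction gave log2 fold changes of 0.01 for Trp53 and -0.49 for Ccng1, with 4 p53 regulators and 4 genes of the deadenylase list higher. DESeq2 gave 3 p53 regulators and 4 genes of the deadenylase list higher. Without the filter Btg2 was at -0.41. Apart from shifts by scaling and fewer samples, the cause was not tested.

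Leaving out 1 library at a time gave -0.69 to -0.45 for Ccng1, -0.03 to 0.50 for Gadd45g and -0.46 to -0.24 for Btg2 (log2 fold changes), 1 to 4 p53 regulators higher, 6 to 14 cyclins and proliferation markers lower, and 0.63 to 0.97 for the difference in the Gadd45b to Gadd45a ratio, which was 0.83 with a pseudocount of 1. Summed markers of Kupffer cells, monocytes, T and NK cells, endothelial cells, hepatocytes and stellate cells turned from above to below 1 (CLP over Sham) with total-count scaling, at 0.841, 0.861, 0.962, 0.706, 0.836 and 0.898, and those of endothelial cells, at 0.996 to 1.06 when 1 library was left out, also without Sham replicate 3.

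The labels give both groups replicate numbers 1 to 4 but do not say that they pair libraries. Same-numbered libraries correlated at 0.172, -0.125, 0.126 and -0.085 in their deviations from the group means. Libraries of different numbers correlated at -0.408 to 0.335. With 4 libraries in each group, these values cannot settle whether the numbers pair libraries. With the replicate block 7794 genes passed in place of 7963, and Btg2 passed (log2 fold change -0.37, edgeR adjusted p = 0.0388). Gadd45a, with 33 to 67 counts in the Sham libraries, has the fewest counts of the 10 genes, and Ier5l, with 39 counts over the 4 CLP libraries, Cdkn2b, with 80 over the 4 Sham libraries, and Btg3 are limited more by counting error.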
